A study of Oryza sativa with 12 samples.

Results

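At the heading stage, 171 of 42081 annotated rice transcripts had far more RNA in roots of the hybrid Xieyou 9308 than in roots of either parent. They were chosen by these heading values. The mean hybrid level had to be at least 5 RPKM (a read count scaled to the length of the transcript and to the total of its library), and the lower hybrid library had to reach at least 2 times the highest of the 4 parental libraries. The 171 transcripts belong to 163 of 34791 loci, and 15402 transcripts met the level limit alone. The heading difference is therefore fixed by the choice and is described here without a test. The tillering libraries were not used in the choice and are the independent readout. The change from tillering to heading contains the heading libraries and is likewise a description.

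Roots were taken from the paternal line R9308, the maternal line Xieqingzao B and their F1 hybrid Xieyou 9308, once at tillering and once at heading. Seedlings raised in a field were moved to a pool of nutrient solution, and 2 roots of each genotype at each stage were sequenced, which gave 12 libraries in 6 groups. All plants shared this culture, with no other treatment. The study calls them biological replicates, and no source used here says whether they came from separate plots, so p-values measure only the spread between these libraries.

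A hybrid whose transcript level lies above that of both parents is said to show over-dominant expression, one of the patterns examined in work on heterosis, the greater vigour of hybrids. Rice roots keep forming new branches and thickening the walls of their vascular and outer cells. Cellulose synthases, lignin enzymes and wax and suberin enzymes build these walls. In flooded or submerged roots, alcohol dehydrogenase and pyruvate decarboxylase carry ethanol fermentation, which keeps glycolysis running when oxygen is short.

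Assigned counts per library lay between 8209696 and 15830233. Of the 6 root markers examined, among them the silicon transporters Lsi1 and Lsi2 and the root protein RCc3, all were detected in every library except the ammonium transporter AMT1;2, which had no count in replicate 2 of the hybrid at tillering. Their levels moved with stage and genotype. RCc3 had 300 to 972 RPKM at tillering and 6.41 to 132 at heading, and Lsi1 had 59.6 to 196 and then 413 to 934. In the heading hybrid Lsi1 was at 465 and 422 RPKM, against 908 and 777 in R9308 and 413 and 934 in Xieqingzao B. Lsi2 was at 270 and 248, against 631 and 563 and against 226 and 734. AMT1;2 was below both parents, at 3.73 and 3.88, against 12.1 and 9.98 and against 21.7 and 7.24. The other markers overlapped R9308. RCc3 was at 132 and 40.6, against 43.1 and 12.9 and against 6.41 and 83.8. AMT1;1 was at 80.4 and 79.7, against 84.4 and 73.0 and against 134 and 71.4. IRT1 was at 2.68 and 3.58, against 2.38 and 3.28 and against 7.54 and 27.0. The part of these root differences in the results was not tested. Replicate 1 of R9308 at tillering stood apart. Its 83 transcripts annotated as chlorophyll-binding, photosystem or Rubisco small subunit proteins summed to 11879 RPKM, against 47.9 to 75.3 in the other 5 tillering libraries. At heading the same sum was 43.5 and 50.1 in R9308, 291 and 393 in Xieqingzao B, with 619 and 334 in the hybrid, and 5 of these 83 transcripts are among the 171. For some medians and ratios that use replicate 1 of R9308, the value without that library is given as well. Other R9308 tillering values include it. The members also varied most between replicates in this group and in the tillering hybrid, where 77 and 78 of them differed at least 2-fold between the 2 libraries, against 12 in the hybrid at heading.

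The chosen transcripts covered a wide range of levels. The hybrid heading mean ran from 5.01 to 735 RPKM with a median of 15.1, and 16 transcripts reached 100 RPKM or more. The ratio of the lower hybrid library to the highest parental library had a median of 2.68 and reached 38.1, with 58 transcripts at 3 or more. In bulk roots, fewer cells of a type and less RNA per cell cannot be told apart, here and in all levels below. For 4 transcripts all parental heading libraries were at 0. Replicate 1 of R9308 and replicate 2 of Xieqingzao B were the highest parental library for 74 and 55 of the other 167 transcripts, so these 2 libraries set the limit for most of the set. Just inside the limit were Os05t0436900-01, a DHHC-type zinc finger protein (ratio 2.00), Os05t0135500-01, a haem peroxidase (2.01), and Os08t0502600-01, an EF-hand protein (2.01). Just outside were Os01t0306800-01, a conserved hypothetical protein (1.99), Os07t0631900-01, a nucleotide-binding protein (1.98), and Os11t0112400-01, a peroxidase (1.97).

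**Figure D1:**
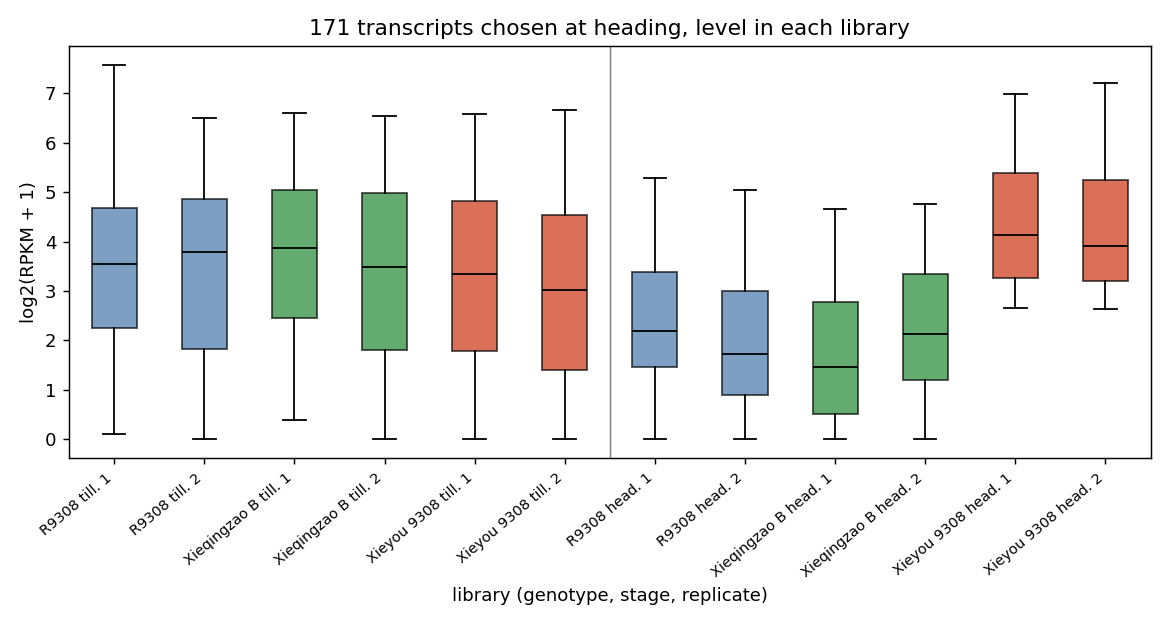
Distribution of log2(RPKM + 1) over the 171 transcripts in each of the 12 libraries, coloured by genotype. Lines are medians, boxes span the quartiles and whiskers the 5th to 95th percentile. The 6 tillering boxes lie side by side, with medians from 3.02 to 3.88, and at heading the hybrid (4.12 and 3.92) lies above the 4 parental libraries (1.47 to 2.20), as the choice requires.

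The tillering stage did not show the heading pattern. Over the 171 transcripts, the median of the mean RPKM at tillering was 13.95 in R9308, 11.9 in Xieqingzao B, with 9.40 in the hybrid, whereas at heading it was 3.01, 2.69 and 15.1 in the same order. Most of the set was already expressed in young roots, with 129, 123 and 110 transcripts at 5 RPKM or more in R9308, Xieqingzao B and the hybrid at tillering. Both tillering hybrid libraries lay above all 4 parental libraries for 5 transcripts and below all 4 for 20. Among the 15402 transcripts with a hybrid heading mean of at least 5 RPKM, the corresponding shares were 12.8% and 14.9%. By means, the tillering hybrid was above both parents for 42 transcripts, between them for 59 and below both for 70, where 40.6% and 38.2% of the 15402 transcripts were above and below. None of the 171 met the heading rule at tillering.

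edgeR's quasi-likelihood F-test with Benjamini-Hochberg adjustment over all 28434 transcripts tested called 0 of the 160 chosen transcripts tested in any tillering comparison. A call required both a 2-fold difference and an adjusted p-value no higher than 0.05, which 0.0106% of all transcripts met for the hybrid against R9308, 0.0% for the hybrid against Xieqingzao B and 0.0246% for Xieqingzao B against R9308. At an unadjusted p-value under 0.05, 16 of the 160 were higher and 17 lower in the hybrid than in R9308 (all transcripts: 7.58% and 9.73%). Against Xieqingzao B, 3 were higher and 16 lower in the hybrid (3.86% and 4.72%). Between the parents, 17 were higher and 6 lower in Xieqingzao B (3.07% and 5.95%). When tested on simulated data, edgeR's fit missed most of the larger and all of the smaller differences at the adjusted threshold. Its 0 calls therefore do not show equal levels. DESeq2 called more, among the members and among all transcripts. It called 11 higher and 10 lower in the hybrid than in R9308 (all transcripts: 3.4% and 5.36%). Against Xieqingzao B it called 3 higher and 5 lower (1.38% and 1.54%), and between the parents 6 higher and 5 lower in Xieqingzao B (1.38% and 3.01%). The median log2 difference over the tested members was −0.05 for the hybrid against R9308, −0.35 against Xieqingzao B and 0.32 for Xieqingzao B against R9308, where all transcripts had 0.002, 0.047 and −0.002. Without replicate 1 of the hybrid at tillering, the first of these medians was −0.61, and without replicate 2 of R9308 it was 0.37. Its direction thus depended on single libraries. Without replicate 1 of R9308, the medians against R9308 were −0.07 for the hybrid and 0.17 for Xieqingzao B.

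**Figure D2:**
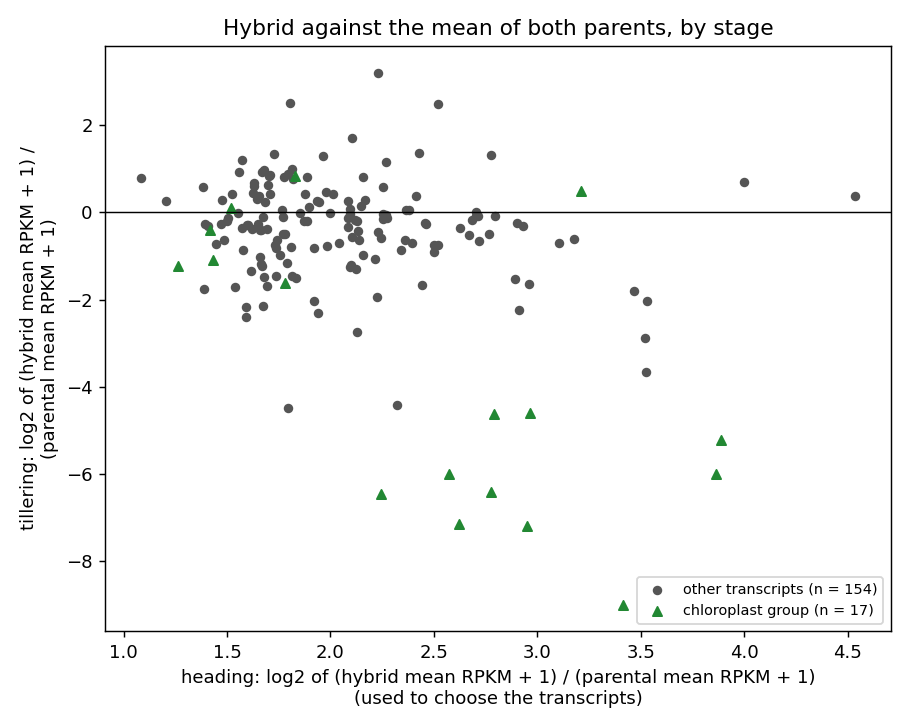
Each point is 1 of the 171 transcripts. The horizontal axis gives the log2 ratio of the hybrid mean to the mean of the 4 parental libraries at heading (used for the choice) and the vertical axis the same ratio at tillering, both on mean RPKM + 1. At tillering the points lie on both sides of 0, and the 17 chloroplast transcripts (triangles) include the lowest values, which rest on replicate 1 of R9308.

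The parents had less of these transcripts at heading than at tillering, and the hybrid had more. In R9308, both heading libraries lay below both tillering libraries for 100 transcripts and above for 9 (31.6% and 30.5% of the 15402 transcripts). In Xieqingzao B these counts were 123 and 7 (25.4% and 31.5%). In the hybrid, 17 were below and 102 above (28.3% and 31.1%). Since low parental and high hybrid heading values were required, these counts are read only as a description of how each transcript reached its heading level. The fitted log2 change had a median of −1.72 in R9308 (−1.26 without its replicate 1 at tillering), −2.04 in Xieqingzao B, with 1.15 in the hybrid.

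The stage courses of single transcripts differed, and the choice favours low parental and high hybrid heading values in each count. The largest class had the hybrid higher at heading and 1 parent lower at heading without overlap, with 48 transcripts (8.97% of the 15402). In 39 the hybrid stages overlapped and both parents were lower (4.2%), in 28 the hybrid was higher and both parents lower (1.47%), and in 26 the hybrid was higher and neither parent lower (20.7%). In 14 transcripts all 3 genotypes were lower at heading (7.4%). The remaining 16 fell in the other classes. The functional groups below were formed from the annotations after the values had been seen.

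Cellulose and wall structure held 15 transcripts. Here the parents were lower at heading, while the group median of the hybrid changed little between stages. It was 40.0 and 23.7 RPKM in the tillering hybrid libraries and 36.2 and 25.2 at heading. For some transcripts the 2 tillering hybrid libraries disagreed widely, and the choice required high hybrid heading values. Heading was below tillering without overlap for 14 of the 15 in R9308 and for 15 of 15 in Xieqingzao B. In the hybrid 3 were below and another 3 above. Of the 15402 transcripts, 31.6%, 25.4% and 28.3% were below in R9308, Xieqingzao B and the hybrid, and 31.1% above in the hybrid. The median log2 ratio of heading to tillering was −1.82, −2.34 and −0.12 in the order R9308, Xieqingzao B and hybrid. Without replicate 1 of R9308 at tillering, the R9308 value was −2.24. The cellulose synthase transcript Os10t0467800-01, one of the enzymes that spin cellulose chains at the plasma membrane, had tillering RPKM values of 24.8 and 38.4 in R9308, 40.5 and 17.8 in Xieqingzao B, with 21.3 and 6.41 in the hybrid. At heading it had 6.47 and 2.42, 2.89 and 3.56, and 24.5 and 18.4. The hybrid at heading lay within the range of the tillering libraries, and the parental heading libraries lay below all of them except that replicate 1 of R9308 at heading and replicate 2 of the tillering hybrid were nearly level.

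A second cellulose synthase, Os01t0750300-01, had 24.1 and 57.3 RPKM in R9308, 49.3 and 47.9 in Xieqingzao B, with 77.4 and 3.66 in the hybrid at tillering. Its heading values were 5.83 and 3.87, 8.13 and 6.04, and 36.2 and 21.0. The 2 tillering hybrid libraries thus enclosed every other library of the transcript. BRITTLE CULM1 (Os03t0416200-01), the COBRA-like protein needed for cellulose in rice secondary walls, was at 9.10 and 6.65 RPKM in the hybrid at heading and at 0.839 to 2.92 in the parents. The transcripts of its locus together reached a ratio of 1.79, under the limit. The wall transcript with the highest level, Os10t0497700-01, is annotated as similar to phytochelatin synthetase, a label that older rice annotations also gave to COBRA-like proteins. At tillering it had 42.4 and 45.01 RPKM in R9308, 560 and 519 in Xieqingzao B, with 338 and 217 in the hybrid, so the 3 genotypes did not overlap and the hybrid lay between its parents. The log2 difference of Xieqingzao B from R9308 was 3.59 ± 0.42 (SE; edgeR adjusted p = 0.0934) and that of the hybrid from R9308 was 2.63 ± 0.41 (adjusted p = 0.154). At heading both parents were low, with 54.0 and 35.9 RPKM in R9308 and 32.3 and 95.02 in Xieqingzao B, and the hybrid had 380 and 343.

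The other wall transcripts encode 2 proline-rich proteins of neighbouring number (Os05t0226900-01 and Os05t0227600-00), a FAS1-domain protein, a chitinase-like protein, a cellulose synthase-like protein of family A, a COBRA-like protein and xyloglucan endotransglycosylases, which cut and rejoin the xyloglucan that ties cellulose fibres. Both transcripts of the xyloglucan endotransglycosylase locus Os06g0697000 were chosen, and the locus as a whole had a ratio of 4.39. Its more abundant transcript, Os06t0697000-02, was at 39.7 and 31.4 RPKM in the hybrid at heading and between 1.65 and 5.39 in the parents, whereas its tillering values, from 11.9 to 33.5, overlapped among the genotypes. The beta-tubulin Os03t0661300-01 and the MAP65/ASE1 microtubule-bundling protein Os03t0719000-01 had the same course. Beta-tubulin was at 6.36 to 15.7 RPKM in the parents at heading, 46.4 and 40.4 in the hybrid at heading and 32.4 to 84.1 over the tillering libraries.

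**Figure D3:**
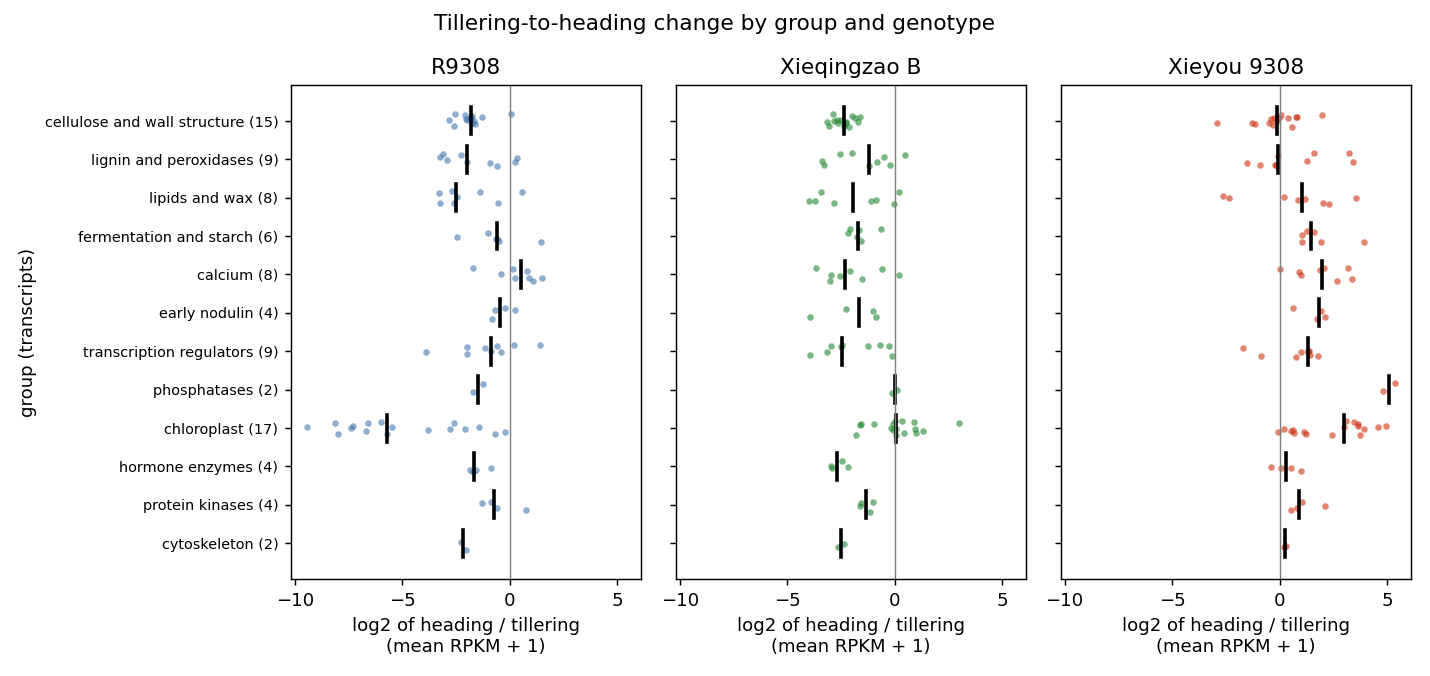
Log2 ratio of heading to tillering (mean RPKM + 1) for each transcript of 12 annotation groups, in R9308, Xieqingzao B and Xieyou 9308. Points are transcripts, black bars are group medians and numbers in parentheses are transcripts per group. Wall groups sit near 0 in the hybrid and below 0 in both parents, calcium and early nodulin transcripts sit above 0 in the hybrid, and the low chloroplast values in R9308 rest on its replicate 1 at tillering.

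Lignin enzymes and peroxidases (9 transcripts) had median log2 ratios of heading to tillering of −1.98 in R9308 (−1.30 without its replicate 1 at tillering), −1.19 in Xieqingzao B and −0.09 in the hybrid. Heading was below tillering without overlap for 6 of the 9 in R9308 and 8 in Xieqingzao B, and above for 4 in the hybrid. The corresponding shares of the 15402 transcripts were 31.6%, 25.4% and 31.1%. Caffeoyl-CoA O-methyltransferase methylates lignin precursors, and both transcripts of its locus Os08g0498400 were chosen. Os08t0498400-01 had 171 and 211 RPKM in the hybrid at heading against 52.02 to 64.3 in the 4 parental libraries, which lay close together. At tillering it was at 77.7 and 145 in R9308, 134 and 66.4 in Xieqingzao B, with 90.3 and 35.9 in the hybrid, with all groups overlapping. Os08t0498400-02 had 74.4 and 85.7 RPKM in the heading hybrid against 18.4 to 30.3. Cinnamoyl-CoA reductases, which catalyse the first step specific to lignin monomers, gave 3 of the 9. For Os02t0811400-00 the hybrid had 18.8 and 11.4 RPKM at heading, against 0.845 to 2.51 in the parents and at most 2.48 in any tillering library. This transcript and Os02t0808800-01 were thus higher in the heading hybrid than in every other library, unlike the third reductase, Os08t0277200-01, whose tillering values reached 27.4 RPKM. A laccase (Os11t0708100-01), 2 haem peroxidases and a sinapyl alcohol dehydrogenase completed the group.

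Lipid and wax transcripts (8) included a glycerol-3-phosphate acyltransferase (Os05t0457800-01) of the kind that makes suberin and cutin monomers, a very-long-chain fatty acid condensing enzyme similar to CUT1 (Os03t0220100-01) and a fatty acyl-CoA reductase (Os09t0567500-01). Os03t0220100-01 was listed at 0 in both hybrid libraries at tillering, with 5.41 and 4.44 RPKM in R9308 and 3.61 and 2.38 in Xieqingzao B. At heading the hybrid had 11.9 and 9.86 RPKM, R9308 had 3.47 and 2.54, and Xieqingzao B had 0 and 2.38. The hybrid was thus the lowest genotype at one stage and the highest at the other. Its tillering differences did not reach the threshold (edgeR adjusted p = 0.151 against R9308 and 0.292 against Xieqingzao B). Summed over the locus, the heading ratio was 1.98. The acyltransferase had 25.05 and 22.8 RPKM in the hybrid at heading against 6.77 to 9.70 in the parents. At tillering it had 4.28 to 7.75 in the parents and 10.2 and 0.109 in the hybrid, whose libraries lay on both sides of the parental range.

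Fermentation and starch transcripts (6, from 4 loci) were all higher at heading than at tillering in the hybrid without overlap, and all 6 were lower at heading in Xieqingzao B. In R9308, 3 were lower. The corresponding shares of the 15402 transcripts were 31.1%, 25.4% and 31.6%. Alcohol dehydrogenase 1, the last enzyme of ethanol fermentation, gave 2 transcripts. Os11t0210300-01 had tillering values of 75.7 and 103 RPKM in R9308, 114 and 225 in Xieqingzao B, with 127 and 39.8 in the hybrid. At heading it had 61.7 and 56.0, 44.3 and 69.9, and 256 and 260. The tillering genotypes overlapped, and only the heading hybrid exceeded the highest tillering library. Its tillering log2 difference was −0.12 ± 0.67 against R9308 (edgeR adjusted p = 0.938) and −1.01 ± 0.68 against Xieqingzao B (adjusted p = 0.697).

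Pyruvate decarboxylase, the preceding enzyme of the pathway, was represented by Os05t0469600-01. It had 4.12 to 14.4 RPKM over all 6 tillering libraries, 41.0 and 13.5 in R9308 at heading, 6.60 and 6.22 in Xieqingzao B, with 110 and 115 in the hybrid. Here R9308 at heading overlapped its tillering range while the hybrid was far above it. An alpha-amylase similar to isozyme 3D (Os08t0473900-02), which degrades starch, had 74.0 and 91.2 RPKM in the heading hybrid and 6.86 to 20.1 in the parents. At tillering it was lower in the hybrid (33.6 and 8.96) than in either parent (41.8 to 93.8), opposite to heading, without passing the test (edgeR adjusted p = 0.362 and 0.515). The other alcohol dehydrogenase transcript, Os11t0210300-02, had 185 and 168 RPKM in the heading hybrid and 22.9 to 61.9 in the parents. Both transcripts of Os09g0298200, similar to Brittle 2, a subunit of ADP-glucose pyrophosphorylase in starch synthesis, were also in the set. Os09t0298200-01 had 33.1 and 52.3 RPKM in the heading hybrid and 7.08 to 8.75 in the parents, and Os09t0298200-02 had 7.55 and 8.81 against at most 1.67.

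**Figure D4:**
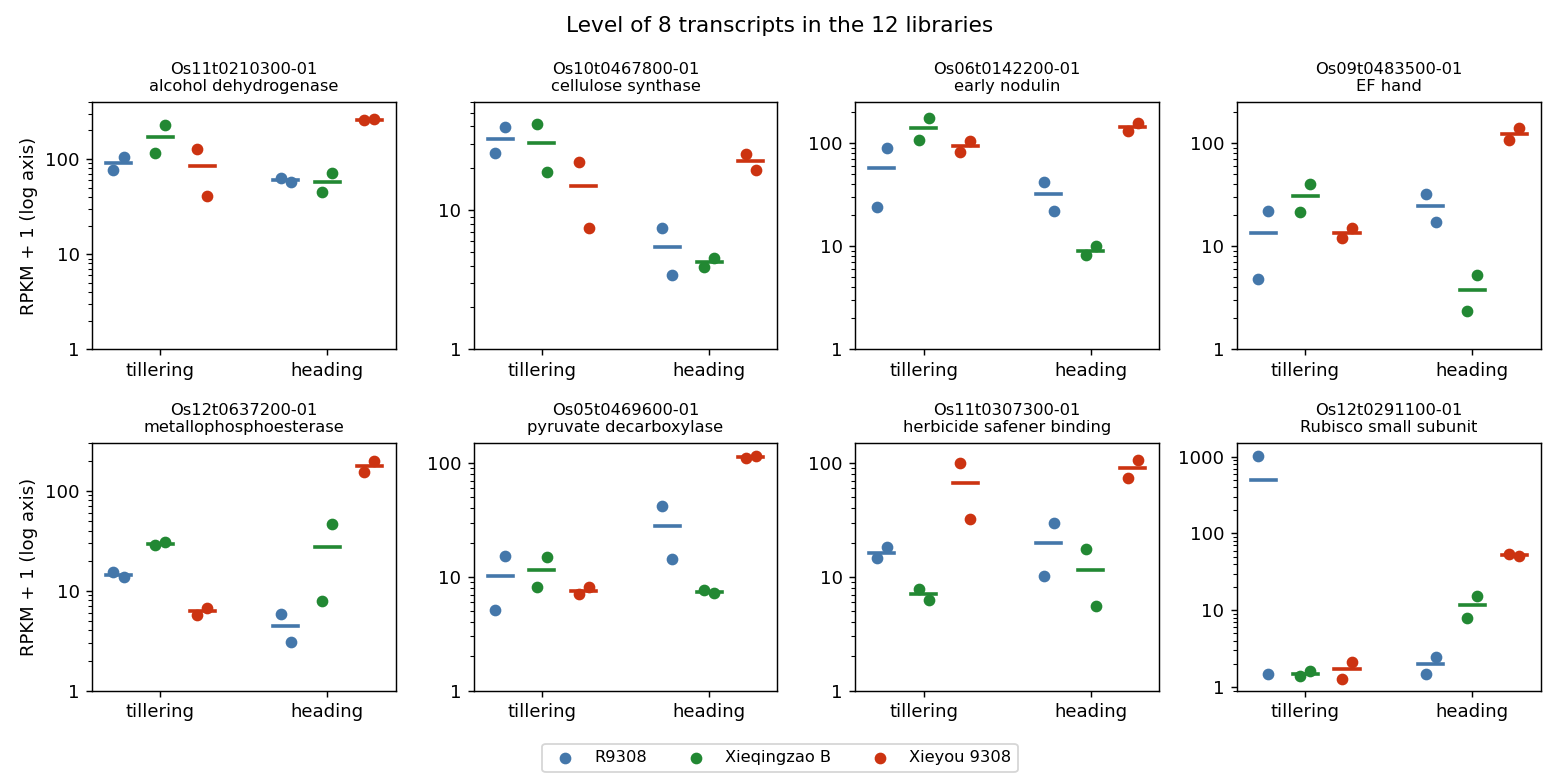
RPKM + 1 on a log axis for 8 of the chosen transcripts. Points are libraries and bars are group means (n = 2), coloured by genotype, with tillering at the left and heading at the right of each panel. The hybrid is the highest genotype at heading in every panel, as chosen. At tillering both hybrid points lie below all parental points only for the metallophosphoesterase. They lie above all parental points only for the herbicide safener binding protein.

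Calcium-related transcripts (8) were higher at heading in the hybrid without overlap for 7 of 8 and lower in Xieqingzao B for 6 of 8. In R9308, 2 were higher and 1 was lower. Of the 15402 transcripts, 31.1% were higher in the hybrid, 25.4% lower in Xieqingzao B, and 30.5% higher and 31.6% lower in R9308. The most abundant transcript of the whole set was the C2-domain protein Os04t0531100-01, a kind of protein that binds membranes when calcium is present. It had 489 and 971 RPKM in R9308, 881 and 974 in Xieqingzao B, with 779 and 661 in the hybrid at tillering. The heading values were 303 and 133, 25.3 and 207, and 741 and 729. The hybrid had nearly the same level at both stages, and both parents were lower at heading. EF-hand proteins bind calcium directly, and 3 such transcripts lie close together on chromosome 9. Os09t0483500-01 had 105 and 137 RPKM in the heading hybrid, 31.1 and 16.2 in R9308 and 1.34 and 4.24 in Xieqingzao B, against 3.81 to 38.6 over the tillering libraries. Os09t0483100-01 and Os09t0482840-01 followed the same order at heading, with 70.7 and 77.0, and 23.2 and 30.0 RPKM in the hybrid. A further EF-hand transcript of this stretch that was not chosen, Os09t0482800-01, had 433 and 405 RPKM in the heading hybrid and 254 and 149 in R9308. An NADPH oxidase similar to respiratory burst oxidase homolog B (Os12t0541300-01), an enzyme that makes superoxide and carries EF-hands, had 68.5 and 85.0 RPKM in the heading hybrid against 2.89 to 27.4 in the parents. Its tillering values reached 115 in replicate 2 of Xieqingzao B, above every heading library.

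The early nodulin transcripts formed a run of 4 neighbouring loci on chromosome 6 (Os06g0142200, Os06g0142300, Os06g0142350 and Os06g0142400). Early nodulins were first described in legume nodules, and the ENOD93 family also occurs in cereals. All 4 were higher at heading than at tillering in the hybrid and lower in Xieqingzao B without overlap (31.1% and 25.4% of the 15402). The stages of R9308 overlapped for all 4. Os06t0142200-01 had 128 and 154 RPKM in the heading hybrid, 40.9 and 20.8 in R9308 and 7.16 and 8.95 in Xieqingzao B. At tillering it had 22.8 and 89.1 in R9308, 105 and 173 in Xieqingzao B, with 79.9 and 103 in the hybrid, so Xieqingzao B was the highest parent at one stage and the lowest at the other. In every one of the 4, replicate 1 of R9308 at tillering was far below replicate 2. The flanking loci Os06g0142100 and Os06g0142500 stayed under 5 RPKM in all libraries. Reads shared among such similar neighbouring copies may have been split by the counting, so the single levels are uncertain.

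Transcription regulators (9) included proteins similar to an EREBP-2 ethylene-response factor, MYB factors, NAM factors, HOS66 (a homeobox protein), the response regulator ARR11 of cytokinin signalling and INDEHISCENT, a basic helix-loop-helix protein known from Arabidopsis fruit. The EREBP-2-like Os05t0361700-01 had 72.6 and 62.9 RPKM in the heading hybrid, 24.7 and 2.63 in R9308 and 2.38 and 8.96 in Xieqingzao B, while all 6 of its tillering values lay between 21.9 and 35.4. The MYB86-like Os01t0702700-01 had 43.7 and 47.6 RPKM in the heading hybrid against 4.15 to 19.3 in the parents, and at tillering 29.1 and 6.36 in the hybrid against 3.51 to 9.93. The ARR11-like Os01t0971800-00 was lower in the hybrid than in both parents at tillering, with 5.10 and 2.18 against 9.47 to 22.3 RPKM. At heading it had 10.5 and 20.04 RPKM in the hybrid against 0.0772 to 2.15. Its tillering differences did not reach the threshold (edgeR adjusted p = 0.286 against R9308 and 0.489 against Xieqingzao B). The INDEHISCENT-like Os09t0455300-02 had one of the highest ratios (5.04), but its locus reached a ratio of only 1.64, and its libraries within a group disagreed (0.0751 and 27.8 RPKM in R9308 at tillering).

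Hormone enzymes (4 transcripts) were a cis-zeatin O-glucosyltransferase, which stores cytokinin as glucoside, both transcripts of the gibberellin 2-oxidase locus Os02g0630300, which inactivates gibberellin, and a 1-aminocyclopropane-1-carboxylate oxidase, the last enzyme of ethylene synthesis. All 4 were lower at heading than at tillering in both parents without overlap (R9308 31.6% and Xieqingzao B 25.4% of the 15402 transcripts). The gibberellin 2-oxidase Os02t0630300-02 had 15.6 and 10.8 RPKM in the heading hybrid and 1.31 to 3.78 in the parents, with 7.53 to 25.3 over the tillering libraries. Of the 4 protein kinases, Os04t0618700-01 had 41.1 and 64.5 RPKM in the heading hybrid and 5.59 to 14.7 in the parents, but 11.8 and 10.8 in the tillering hybrid, below the 18.4 to 44.7 of the parents. In this kinase, the only 1 of the 4 with the hybrid below all parental libraries at tillering, hybrid and parents thus changed places. Its tillering differences did not reach the threshold (edgeR adjusted p = 0.221 against R9308 and 0.606 against Xieqingzao B).

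Outside the chloroplast group, the 2 highest log2 ratios of heading to tillering in the hybrid, 5.35 and 4.82, belonged to phosphatases of chromosome 12 that are neighbours in the annotation. Os12t0637200-01, a metallophosphoesterase, had 153 and 198 RPKM in the heading hybrid, 4.88 and 2.05 in R9308 and 6.95 and 45.8 in Xieqingzao B, whose replicates were far apart. At tillering it had 4.78 and 5.75 in the hybrid, 14.4 and 12.7 in R9308 and 27.6 and 29.5 in Xieqingzao B. The 3 genotypes did not overlap at tillering and the hybrid was lowest. Its tillering log2 difference was −1.41 ± 0.30 against R9308 and −2.46 ± 0.31 against Xieqingzao B, short of the threshold by edgeR's test (adjusted p = 0.170 and 0.292). Os12t0637400-01, similar to purple acid phosphatase, a family that releases phosphate from organic esters, had 47.6 and 57.2 RPKM in the heading hybrid, 0.801 and 0.368 in R9308 and 0.310 and 12.998 in Xieqingzao B. At tillering it was at 0.146 and 0.477 in the hybrid and between 2.27 and 6.86 in the parents. The next locus, Os12t0637500-01, similar to a nitrate and chloride transporter, was also lowest in the tillering hybrid (0.541 and 0 RPKM) but not raised at heading (0.690 and 1.103). The preceding purple acid phosphatase transcript Os12t0637100-01 overlapped among genotypes at heading. It had 25.7 and 38.7 RPKM in the hybrid and 20.7 to 44.4 in the parents. At tillering it too was lowest in the hybrid (7.85 and 3.78 against 15.99 to 44.7 RPKM). Os12t0637000-00 was also lowest there (0.0876 and 0.229 against 0.473 to 1.41), whereas Os12t0637100-02 overlapped.

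The chloroplast group (17 transcripts of 16 loci) was almost silent in most libraries. Its summed level was 296 and 213 RPKM in the heading hybrid, 23.9 and 20.4 in R9308 and 23.4 and 49.8 in Xieqingzao B. At tillering it was 30.7 to 65.3 RPKM in 5 libraries and 6465 in replicate 1 of R9308. The Rubisco small subunit transcript Os12t0291100-01, part of the enzyme that fixes carbon dioxide, had 53.8 and 50.4 RPKM in the heading hybrid, 0.497 and 1.48 in R9308 and 6.92 and 14.6 in Xieqingzao B. At tillering it was at 0.272 to 1.15 in 5 libraries and at 1003 in replicate 1 of R9308. CP12 (Os01t0303000-01), a regulator of Calvin cycle enzymes, had 21.6 and 15.1 RPKM in the heading hybrid and 0.242 to 1.22 in the parents. Its tillering values, at most 0.601 RPKM in 5 libraries, reached 2638 RPKM in replicate 1 of R9308. The chlorophyll a-b binding protein 2 (Os01t0600900-01) had 42.0 and 10.7 RPKM in the heading hybrid, which differed about as much between its 2 libraries as the lower of them did from the highest parent, 2.3003 RPKM.

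Plastocyanin (Os06t0101600-01), which carries electrons between the photosystem complexes, and both transcripts of a chloroplast fructose-bisphosphate aldolase (Os11g0171300) showed the same order. Os11t0171300-02 had 18.6 and 14.3 RPKM in the heading hybrid and was at 0 in 3 parental heading libraries and 0.710 in the other, and Os11t0171300-01 had 12.6 and 5.09 against 0.206 to 0.321. A subunit of photosystem I (Os12t0420400-02), a photosystem II polypeptide (Os08t0200300-02) and a protein with a Rieske iron-sulphur region (Os07t0556200-01) were also in the group, with ratios of 8.93, 3.20 and 2.48. Photosynthesis transcripts outside the set had missed the rule in these same heading libraries. Their sums and calls at heading are therefore partly fixed by the choice and are given as a description. The 78 such transcripts summed to 483 and 261 RPKM in the heading hybrid and to 284 and 374 in Xieqingzao B, which overlap. In R9308 they summed to 42.1 and 47.3. Of 83 tested transcripts outside the set from a keyword list for photosynthesis and carbon fixation, edgeR called 9 higher in the heading hybrid than in R9308 (0.714% of all transcripts) and 1 higher and 2 lower than in Xieqingzao B (5.35% and 2.75%). Whether green root or other green tissue was part of a root sample was not tested. Without replicate 1 of R9308, the median tillering log2 ratio of the hybrid to the parents over the 17 went from −4.64 to 0.19, and the change to heading in R9308 went from −5.73 to −0.14.

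**Figure D5:**
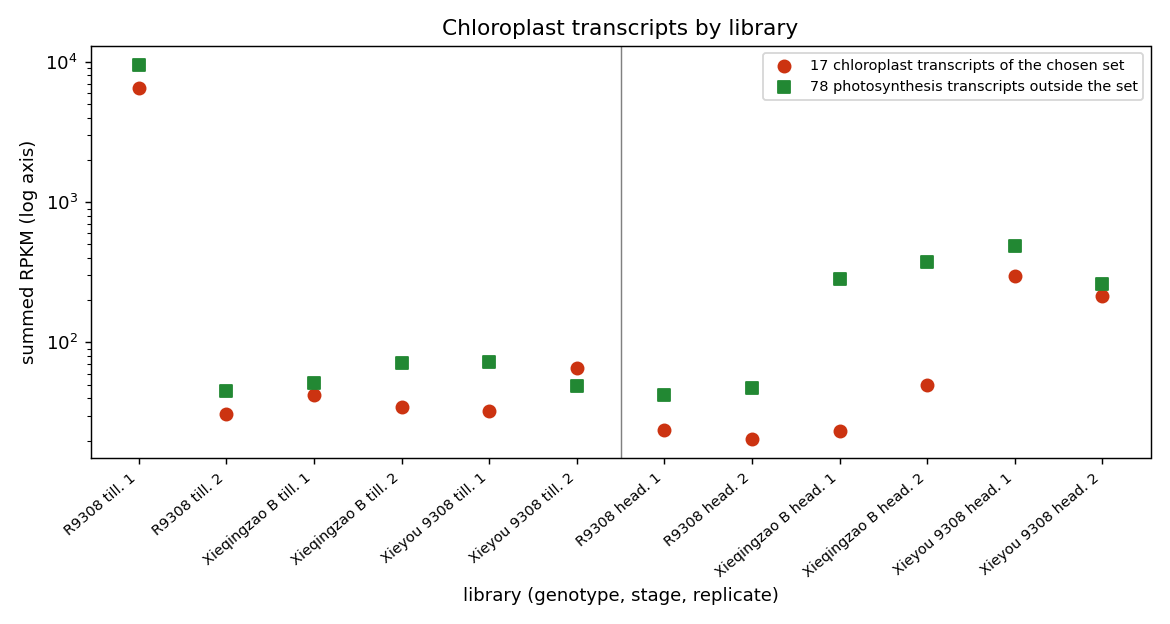
Summed RPKM (log axis) in each library of the 17 chloroplast transcripts of the set (circles) and of 78 chlorophyll-binding, photosystem and Rubisco small subunit transcripts outside it (squares). Replicate 1 of R9308 at tillering is far above all others for both sums. At heading the circles of the hybrid lie above both parents, and the squares of the hybrid and Xieqingzao B overlap.

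At tillering, 5 transcripts were already higher in the hybrid than in every parental library. The clearest was Os11t0307300-01, a herbicide safener binding protein. It had 99.7 and 31.0 RPKM in the tillering hybrid, 13.6 and 17.2 in R9308 and 6.87 and 5.22 in Xieqingzao B. At heading it had 73.3 and 106, 9.26 and 28.8, and 16.5 and 4.57, so both stages had the same order of hybrid and parents. The tillering log2 difference was 2.06 ± 0.63 against R9308 and 3.44 ± 0.67 against Xieqingzao B (edgeR adjusted p = 0.229 and 0.328). The other 4 were Os01t0110200-01 and Os04t0382400-01, both conserved hypothetical proteins, the DHHC-type zinc finger protein Os05t0436900-01 and Os06t0114000-03, similar to the beta subunit of the Rubisco large subunit-binding chaperonin. Their hybrid values at tillering were 12.7 and 22.6, 6.41 and 6.98, 11.7 and 15.05, and 9.78 and 14.4 RPKM.

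Other high tillering ratios rested on 1 of the 2 hybrid libraries. The ribosomal protein transcript Os05t0445500-02, with the highest tillering log2 ratio of the set (3.22), had 0.794 and 35.6 RPKM in the tillering hybrid, and its locus did not meet the heading rule (0.744). Os05t0176100-07, similar to a cellulose synthase, had 31.2 and 229 RPKM there against 10.9 to 35.3 in the parents. The phospholipase D transcript Os06t0604200-02 had 22.2 and 99.4 RPKM against 9.41 to 34.5. For Os07t0676600-01, similar to a DNA-binding protein, the hybrid had 31.0 and 9.09 RPKM and overlapped Xieqingzao B (9.57 and 8.97).

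Of the 20 transcripts with the hybrid below every parental library at tillering, 5 were at or under 0.5 times the lowest parental library without that library being at 0. Beside those described above, Os03t0806600-01, a conserved hypothetical protein, had 19.5 and 6.997 RPKM in the tillering hybrid against 43.8 to 150 in the parents, and 45.3 and 55.8 against 14.5 to 17.8 at heading. Os06t0688200-00, similar to a blight-associated protein, was at 1.105 and 0 RPKM in the tillering hybrid against 1.24 to 84.2, a parental range that the hybrid nearly touched.

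The parents differed for some of these transcripts. Both transcripts of Os07g0164700, similar to a helicase-like protein, were nearly absent from R9308 at both stages. Os07t0164700-02 had at most 0.512 RPKM in any R9308 library, 36.1 and 36.2 in Xieqingzao B, with 17.7 and 15.4 in the hybrid at tillering, and 6.43 and 11.7 in Xieqingzao B, with 25.7 and 25.99 in the hybrid at heading. The hybrid lay between its parents at tillering and above both at heading. The tillering log2 difference of Xieqingzao B from R9308 was 6.73 ± 0.61 (edgeR adjusted p = 0.077), and that of the hybrid from R9308 was 5.59 ± 0.58 (adjusted p = 0.151). In the opposite direction, Os06t0614400-01, a conserved hypothetical protein, was at 0.146 and 0 RPKM in Xieqingzao B at tillering and at 0 in both of its heading libraries, with 22.2 and 8.42 and then 1.90 and 2.27 in R9308.

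Some of the highest ratios came from single isoforms of a locus. Of the 171 transcripts, 67 belong to loci with several annotated transcripts, and for 25 of these 67 the locus sum did not meet the rule. In 8 of the 25 the locus sum of the lower hybrid library was under that of the highest parent. The highest ratio of the set, 38.1 for the ankyrin-domain protein Os05t0112000-01, became 0.755 when its locus was summed. Os04t0462900-03, similar to prohibitin 2, was at 0 in all parental libraries and in the tillering hybrid and at 0.825 and 10.2 RPKM in the heading hybrid, and its locus ratio was 0.774. The other 3 transcripts with all parental heading libraries at 0 included Os03t0240800-01, similar to AGL157Cp, whose locus ratio was 0.781. The rest, Os07t0208533-00 and Os05t0440150-00, are annotated as hypothetical genes and had means of 10.5 and 6.62 RPKM in the heading hybrid. The paper lists Os07t0208533 among its up-regulated cellulose synthases. The share of reads assigned to each isoform was estimated by the authors' counting and cannot be checked in these files. The locus ratio of the chloroplast aldolase, 18.8, lay between those of its 2 chosen transcripts (20.1 and 15.8). For CP12 the ratios of locus and transcript were the same (12.4), so its locus sum adds no check.

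By keyword lists drawn over the whole annotation, 40 of the 171 transcripts (23.4%) had no known function, against 24.1% of the transcripts at 5 RPKM. Lipid terms took 7 (4.09% against 1.25%), cell wall, expansin and lignin terms 5 (2.92% against 0.480%) and photosynthesis terms 5 (2.92% against 0.318%). Transcription factor terms took 5 (2.92% against 4.92%) and protein kinase terms 4 (2.34% against 4.51%). Transcripts of the cell wall list outside the set had missed the rule in the heading libraries, so their heading calls are partly fixed by the choice. Of the 144 tested, edgeR called 9 higher and 4 lower in the heading hybrid than in Xieqingzao B (all transcripts: 5.35% and 2.75%). Against R9308 it called none of them in either direction, where 0.714% and 0.173% of all transcripts were called. Chromosome 5 held 27 of the 171 (15.8% against 8.71% of transcripts at 5 RPKM) and chromosome 6 held 22 (12.9% against 7.97%). The set contained 8 pairs of loci that are neighbours in the annotation, including the early nodulin run and the phosphatase pair. In the other 4 pairs a cupredoxin-domain protein (Os01g0127000) neighbours a conserved hypothetical protein (Os01g0127100), a glyceraldehyde-3-phosphate dehydrogenase (Os03g0129300) neighbours Os03g0129400, a chloroplast ribosomal protein L15 (Os03g0219900) neighbours the CUT1-like enzyme (Os03g0220100), and 2 hypothetical genes (Os08g0203100 and Os08g0203150) lie side by side. Among the most abundant members, Os05t0130600-01 and Os01t0563000-04 carried no functional annotation. Os05t0130600-01 had 133 and 157 RPKM in the heading hybrid and 24.3 to 55.4 in the parents, and Os01t0563000-04 had 116 and 147 against 9.88 to 43.8. Both transcripts of Os05g0531500, one of them annotated as a DUF616 family protein of unknown function, were chosen, with hybrid heading means of 72.8 and 48.9 RPKM.

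The set itself depended on single heading libraries. Leaving out replicate 1 of R9308 at heading raised the number of transcripts from 171 to 426, and leaving out replicate 2 of Xieqingzao B raised it to 275. Without replicate 1 or replicate 2 of the hybrid it was 324 and 307.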

How the data were processed

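RNA-Seq was measured in 12 root libraries, 2 for each of 3 genotypes at each of 2 stages, grouped by the labelled genotype and stage. The table names columns by genotype letter and number, and numbers 1 and 2 were read as replicates 1 and 2 of tillering and the next 2 as those of heading. Per the paper's methods, the authors filtered the reads for quality and used RSEM 1.1.11 for mapping, with Nipponbare (IRGSP build 5.0) as the reference. The submitters' processing notes also name CASAVA 1.8. The deposited counts are whole numbers per annotated transcript. The authors' RPKM values divide these counts by transcript length and column sum. The authors' deposited log2 fold changes, and the p-value and FDR columns beside them, hold their own edgeR comparisons between genotypes and were not used.

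Members were found on RPKM. Counts of each stage were tested with edgeR 4.0.16 (R 4.3.3, limma 3.58.1) after filterByExpr and TMM, by the quasi-likelihood F-test with Benjamini-Hochberg adjustment over all transcripts, and DESeq2 1.42.0 was an alternative. The fitted stage changes came from all 12 libraries. Ratios of levels were taken as log2 of mean RPKM + 1. Python 3.11.15, numpy 2.4.6, pandas 2.3.3 and matplotlib 3.10.9 were used. Isoforms of a locus, named by the annotation ID, share reads, so locus sums were tried. When tested on simulated data, the tillering fit recovered sizes and directions. Most of the larger and all of the smaller differences missed the threshold, however. The members and lists were chosen with earlier results of these data known, and the annotation groups after the values were seen.

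Named were the 10 members with the highest hybrid heading mean, the 10 with the highest ratio, those called at tillering, the 5 highest and 5 lowest tillering ratios, the 3 on each side of the limit, up to 4 members of each keyword list with at least 3 (by heading level), loci with several members and neighbouring loci. Others were added to describe the groups after their values were seen. No sequences were used here.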

Additional observations from a re-analysis of the deposited data

Results flagged for a closer look

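For 20 of the 171 transcripts, both hybrid libraries lay below all 4 parental libraries at tillering and above all 4 at heading. Of the 15402 transcripts with a hybrid heading mean of at least 5 RPKM, 14.9% lay below in this way at tillering. Lying below at tillering was therefore not more common in the set than among those transcripts. The heading direction was required by the choice of the set, the tillering direction was not, and the difference between the stages was not tested. Values are log2 ratios of the hybrid mean to the parental mean at tillering (mean RPKM + 1).

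The 2 phosphatases of chromosome 12 had −1.82 (Os12t0637200-01) and −2.04 (Os12t0637400-01). Enzymes and wall proteins followed, with −2.31 for the CUT1-like condensing enzyme Os03t0220100-01, −1.67 for the alpha-amylase Os08t0473900-02 and −2.17 for the phytochelatin synthetase-like Os05t0386800-02. The libraries of the tillering hybrid disagreed for Os05t0386800-02, with 467 and 0 counts. Its fitted log2 difference from R9308 was −2.06 ± 2.00 (SE). Regulators and transporters had −1.65 (ARR11-like Os01t0971800-00), −1.25 (protein kinase Os04t0618700-01), −1.31 (P-glycoprotein ABCB5-like Os02t0693700-02) and −0.41 (amino acid transporter Os04t0562100-01).

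The glyceraldehyde-3-phosphate dehydrogenase Os03t0129300-01 had −4.64 and the chloroplast aldolase Os11t0171300-01 had −4.61, and without replicate 1 of R9308, which was far above the other tillering libraries, they had −0.56 and −0.23. The blight-associated protein p12-like Os06t0688200-00 had −4.49, with parental values from 1.24 to 84.2 RPKM, and −3.53 without that library.

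Of the proteins of unknown function, Os01t0210600-01 had −2.75 (−1.47 without replicate 1 of R9308), Os03t0806600-01 had −2.40 (−1.81), Os08t0203100-01 had −2.14 and Os08t0160600-01 had −2.04. The remaining 4 were Os05t0526200-01 at −1.77 (−1.15 without replicate 1 of R9308), Os02t0324400-01 at −1.17, Os02t0761300-00 at −0.98 and Os10t0532600-01 at −0.98. Without replicate 1 of R9308 the hybrid was below all remaining parental libraries for 40 transcripts of the set. The share over all transcripts was not computed without that library.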

How the results depend on the processing

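Precision was limited by 2 libraries per group and by the spread of the tillering hybrid and R9308. Tillering calls among the members (0 by edgeR) for the hybrid against R9308 numbered 21 with DESeq2 (8.76% of all transcripts), 5 in the fit of all 12 libraries (3.54%) and 1 for locus sums (0.0429%). Against Xieqingzao B they numbered 8 with DESeq2 (2.92%). Between the parents they numbered 11 with DESeq2 (4.39%), 4 with all 12 libraries (1.98%), 2 for locus sums (0.49%) and 1 without the filter on low counts (0.0708%). The fits without 1 library took the spread of a lone library from the other groups and called 0 members and at most 3 of all transcripts, and the replicate block called 0 of all transcripts, so they say nothing about stability. In the block, the median log2 differences were −0.07, −0.45 and 0.38. Same-numbered libraries did not deviate in the same direction, since their deviations correlated from −0.35 to 0.04 across transcripts. This cannot show whether libraries of different numbers were paired. Without any 1 library, the medians lay between −0.61 (without hybrid replicate 1) and 0.37 (without R9308 replicate 2) for the hybrid against R9308, −0.71 and −0.21 against Xieqingzao B, and 0.10 and 0.88 (without R9308 replicate 2) between the parents. Without 1 library, the hybrid lay above all parents at tillering for 5 to 36 members (36 without hybrid replicate 2). It lay below for 21 to 55 (55 without hybrid replicate 1), and shares over all transcripts were not computed in these settings. The stage medians lay between −2.12 and −1.23 in R9308 (−1.31 on mean RPKM + 1), −2.41 and −1.67 in Xieqingzao B, with 1.02 to 1.59 in the hybrid (0.92 on mean RPKM + 1), always with the same sign. The set held 390 transcripts at a 1.5-fold limit, 58 at 3-fold and 379 at a level of 1 RPKM, and 196 to 426 without 1 heading library (426 without R9308 replicate 1). With RPKM divided by TMM factors, 169 of the 171 were kept. Alternatives chosen after seeing the data left out the chloroplast group or the members whose locus sum missed the rule. They moved no median above by more than the spread between replicates, while the count with Xieqingzao B higher at heading went from 7 to 3 without the chloroplast group.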
